A study of Danio rerio with 24 samples.

Results

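The keratin and epithelial junction genes of the zebrafish array were examined in retina and whole embryo of yng mutants and wild-type (WT) fish. They were taken as every probe set whose platform gene symbol begins with krt, cyt1, cldn, epcam, jup, pkp, ppl, evpl, tp63, ocln or tjp, or names a desmoplakin or a connexin (gja to gjd), and the brightest probe set stood for each gene. The rule gave 67 genes, on 82 probe sets with 1 symbol, of 8793 named genes and 15502 probe sets. They were 15 keratins, 24 claudins, 9 desmosomal, plakin and EpCAM genes, 4 occludin and zonula occludens genes, 13 connexins and tp63. The remaining gene, krtcap2, entered by its name alone: in mammals it encodes a subunit of the oligosaccharyltransferase complex and not a keratin.

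Each of 24 Affymetrix arrays measured 33 ng of total RNA from a pool of 10 animals, with 3 arrays, described as biological replicates, in each of 8 groups. The groups were yng and WT retinas at 52 hours post fertilization (hpf), yng and WT retinas at 36 hpf, yng and WT whole embryos at 52 hpf, and yng and WT whole embryos at 36 hpf. The strain is given as AB in all groups, although the label of WT embryo 36 hpf replicate 1 gives none. Retina pools held 10 retinas, 1 per animal, except at 36 hpf in yng, where they held 20, both from each animal. The yng mutation lies in smarca4a, which encodes the ATPase of a chromatin remodelling complex, and the mutants were staged by their unaffected clutch mates. The mutation acts in the whole animal, so yng and WT retinas developed in different bodies. The design asked which genes respond to mutation, tissue and time and to their combinations.

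Keratins form the intermediate filaments of epithelia, and desmosomes tie those filaments to the membrane through desmoplakin, plakoglobin, plakophilins and other plakins. Claudins and occludin are the membrane proteins of tight junctions, which zonula occludens proteins hold to the cytoskeleton, and connexins form gap junction channels. At these ages the embryo is covered by periderm and basal epidermis, both rich in keratins and desmosomes, whereas the neural retina is a neuroepithelium that joins its cells mainly through cadherin junctions and gap junctions.

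smarca4a itself read 757 to 1251 in the 12 yng arrays and 3134 to 4158 in the 12 WT arrays, so the arrays match their genotype labels. All 13 measured retina markers were higher in retinas than in embryos in each of the 4 comparisons, and the summed intensity of 13 muscle markers was 344 to 800 in retinas and 126488 to 142274 in embryos. The deposited medians of the arrays differed by up to 0.67 on the log2 scale, lower in retinas, and tests were therefore run on quantile-normalized log2(intensity + 16). Levels below are the deposited intensities, and differences are log2 differences of the normalized values with limma's moderated standard error and a p adjusted over all 15502 probe sets, with a threshold of 0.05. A probe set's intensity also depends on its probes, so levels are not compared between genes. The replicates are separate pools, and p-values measure the spread between pools, part of which follows the replicate number. Each gene's standard error is pooled over all 8 groups. For genes dim in retinas, the scatter of the retina values therefore also enters the embryo tests. A log offset of 1 widens that scatter. An embryo call lost under it, or an embryo test that did not pass, need not reflect scatter among embryo arrays. Blood markers summed to 2673 to 5607 in yng retinas and 4529 to 7381 in WT retinas at 36 hpf. The files hold no detection calls. Values near 0 are given as listed, and the offset makes differences of dim genes smaller than the true ones. In RNA of whole retinas and embryos, fewer cells of a type and less RNA per cell cannot be told apart.

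**Figure D1:**
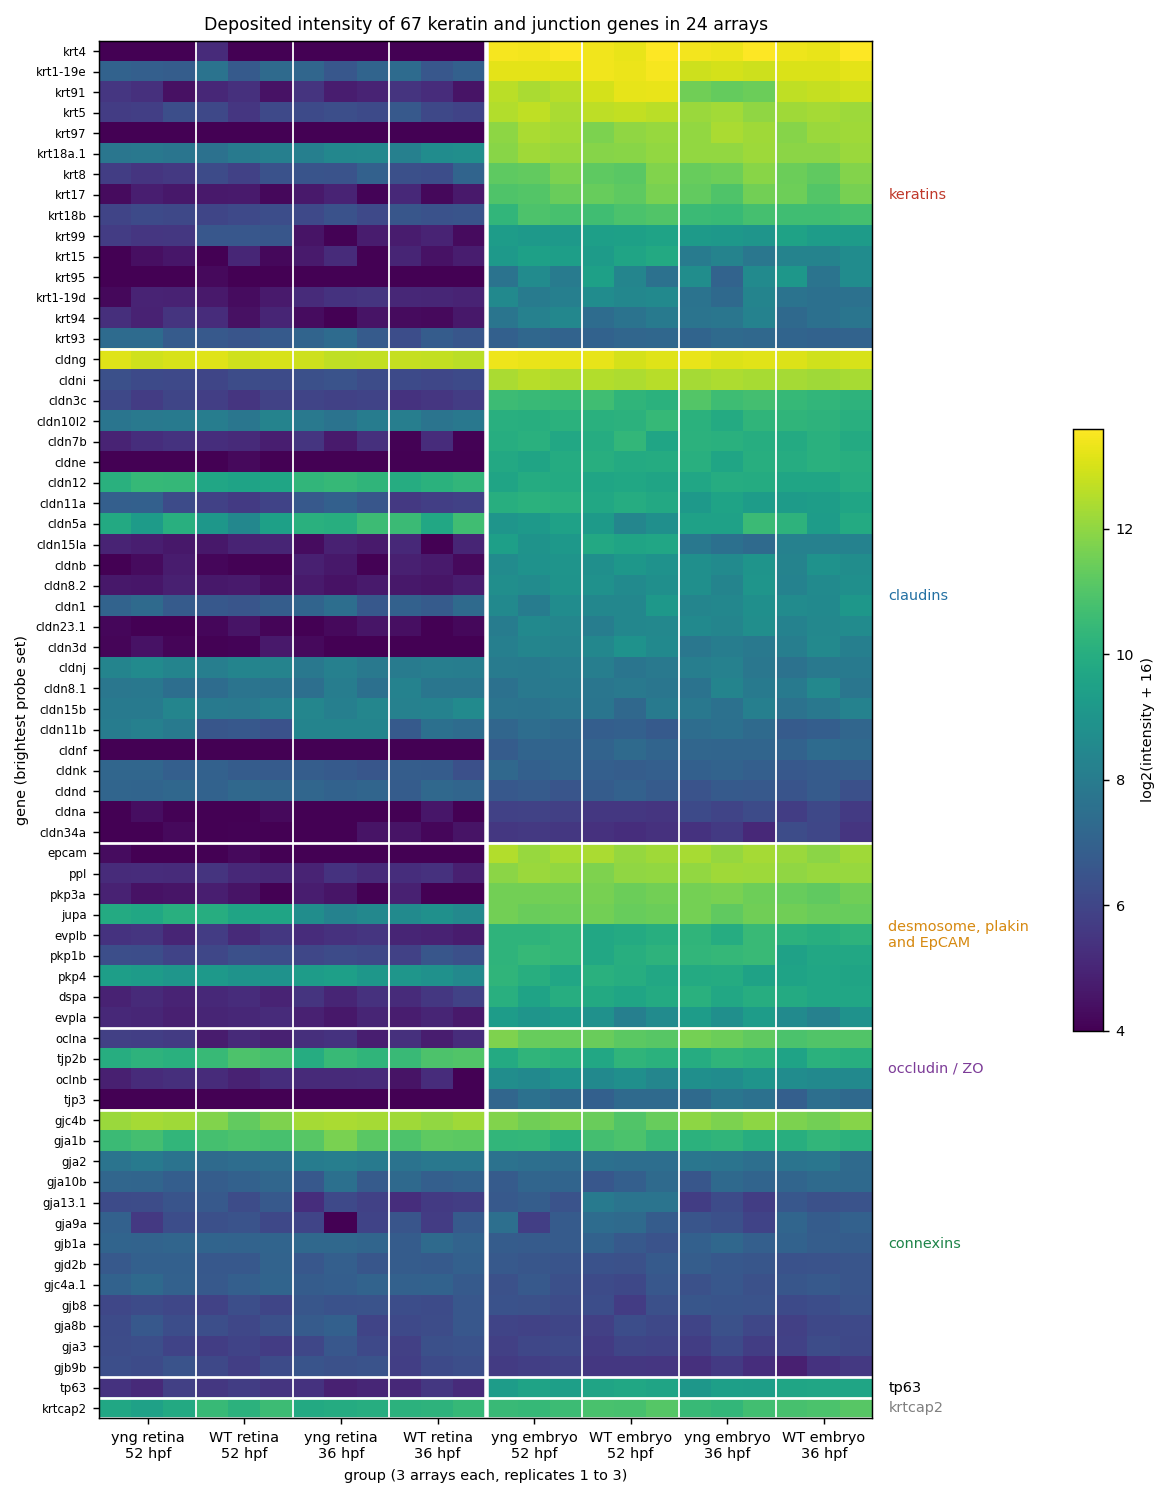
Deposited intensity of the 67 genes (rows, by role) on the 24 arrays (columns, 3 per group), as log2(intensity + 16). Nearly all keratin, desmosome and plakin rows are dark in the 12 retina arrays and bright in the 12 embryo arrays, while most connexin rows differ little between the tissues.

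The largest differences among these genes lay between the tissues. In yng fish at 52 hpf 18 of the 67 genes were higher and 42 lower in retinas than in embryos. Of all probe sets 73.7% were called there, 51.2% higher and 22.5% lower. In WT fish at 52 hpf 16 genes were higher and 43 lower, against 70.0% of all probe sets, 49.8% higher and 20.2% lower. At 36 hpf 18 genes were higher and 42 lower in yng, against 75.1% of all probe sets, 51.8% higher and 23.2% lower. In WT at 36 hpf 18 were higher and 43 lower, against 73.6% of all probe sets, 51.1% higher and 22.4% lower. The share of lower genes was well above the share over the array in all 4 comparisons, and the share of higher genes was below it. The normalization raised the median difference over all probe sets to between 0.37 and 0.40. On the deposited scale, without it, 7 genes were higher and 44 lower in yng at 52 hpf, against 19.7% of all probe sets higher and 32.1% lower, and 6 and 45 in WT, against 16.8% and 28.6%. At 36 hpf that scale gave 9 and 44 in yng, against 21.4% and 33.6%, and 7 and 46 in WT, against 17.0% and 33.9%. Under both scalings 41 genes were lower in retinas in all 4 comparisons, and 2 genes, the connexins gjb9b and gjc4b, were higher in all 4. Of all probe sets 15.6% were lower and 9.2% higher by the same rule.

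**Figure D2:**
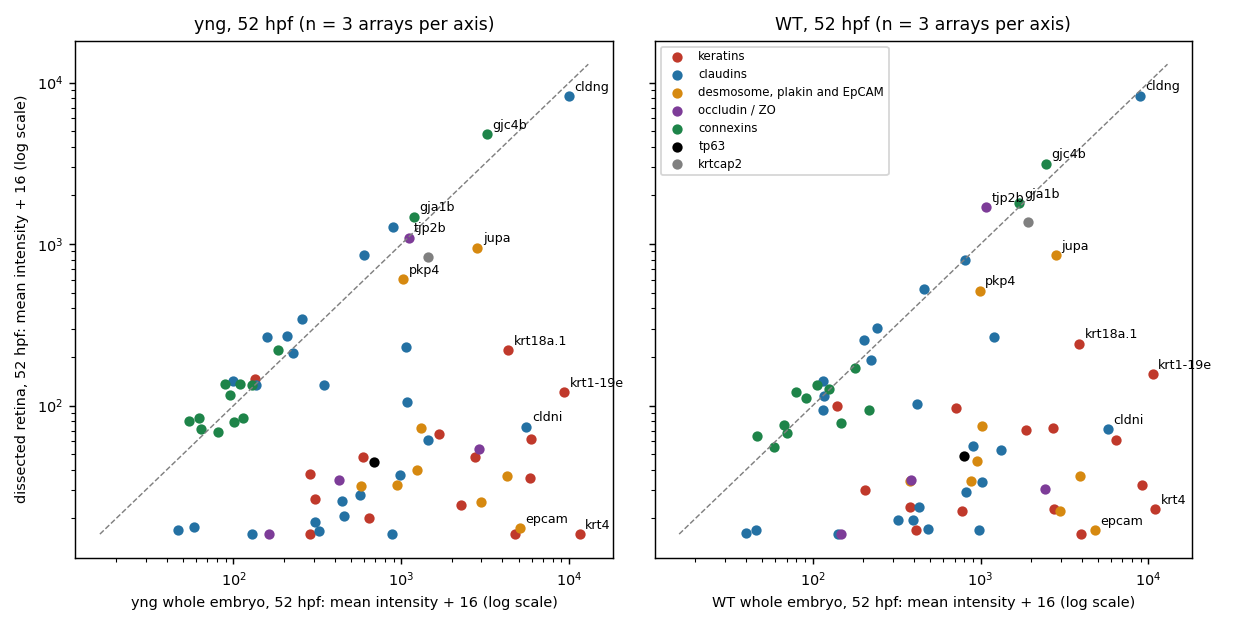
Mean deposited intensity plus 16 in dissected retinas (vertical axis) against whole embryos (horizontal axis) at 52 hpf, both log scales, for yng (left) and WT (right); each point is 1 gene, colours mark roles, and the dashed line marks equal values. Keratins, desmosomal genes and many claudins lie far below the line, and connexins lie along it.

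Fewer of the genes changed with genotype. In retinas at 52 hpf 10 of 67 genes passed the threshold, 7 higher and 3 lower in yng than in WT, against 19.7% of all probe sets, 10.0% higher and 9.7% lower. In retinas at 36 hpf 3 passed, all higher in yng, against 9.08% of all probe sets, 4.19% higher and 4.9% lower. There 7 were higher and 4 lower at an unadjusted p under 0.05, which 20.9% of all probe sets met. In embryos at 52 hpf 4 passed, 1 higher and 3 lower in yng, against 5.9% of all probe sets, 2.77% higher and 3.13% lower. In embryos at 36 hpf 4 passed, 2 higher and 2 lower, against 5.95% of all probe sets, 2.78% higher and 3.17% lower. In these 4 comparisons the shares are level with those of the whole array or below them. Arrays with the same replicate number deviated together in embryos and in retinas at 52 hpf (correlations of 0.23 to 0.33 there). Between yng and WT retinas at 36 hpf these correlations ran from 0.0743 to 0.223. With that number as a block 15 of 67 genes passed in retinas at 52 hpf, against 31.1% of all probe sets. In embryos 7 of 67 passed at 52 hpf, against 13.6% of all probe sets, and 12 of 67 at 36 hpf, against 14.5%. Of the 67 genes, 16 passed in at least 1 of the 4 genotype comparisons and 51 in none, while 26.9% of all probe sets passed in at least 1. The 4 genes on the chromosome of smarca4a (cldni, cldnk, evplb and ppl) passed in none, their lowest adjusted p being 0.158.

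With age, 9 genes passed in yng retinas, 4 higher and 5 lower at 52 than at 36 hpf, against 25.6% of all probe sets, 12.2% higher and 13.4% lower. In WT retinas 17 passed, 3 higher and 14 lower, against 36.9% of all probe sets, 16.1% higher and 20.8% lower. In yng embryos 5 passed, all higher, against 8.83% of all probe sets, 5.04% higher and 3.79% lower. There 5 were higher and 4 lower at an unadjusted p under 0.05, which 19.5% of all probe sets met. In WT embryos 8 passed, 5 higher and 3 lower, against 14.3% of all probe sets, 7.34% higher and 6.99% lower. With the replicate block the counts were 14 in yng retinas, against 37.8% of all probe sets, and 8 in yng embryos, against 17.9%. In WT they were 21 in retinas, against 47.8% of all probe sets, and 11 in embryos, against 25.1%. Among the genes lower in WT retinas was dspa, the gene of desmoplakin (-0.61, adjusted p = 0.00463), with the lens connexin gja3 (-0.54, adjusted p = 0.0167). dspa was dim, with 18.1, 21.2 and 14.9 at 52 hpf, against 20.4, 30.9 and 44.0 at 36 hpf. gja3 read 37.1, 44.2 and 36.6 at 52 hpf, against 39.7, 65.1 and 69.0 at 36 hpf. As deposited, the values of both genes overlapped between the ages. Summed lens markers in WT retinas were 183, 150 and 186 at 52 hpf, against 531, 413 and 789 at 36 hpf. The part of lens tissue in the gja3 difference was not tested. On the deposited scale the split moved to 7 higher and 4 lower in yng retinas, against 14.5% of all probe sets higher and 10.5% lower. In WT retinas it moved to 6 higher and 7 lower, against 20.1% and 14.6%.

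Interaction tests asked whether the genotype difference itself changed with age or tissue. Between the ages in retinas 1 gene passed, with a lower value, against 4.11% of all probe sets, 1.25% higher and 2.86% lower. Between the tissues at 52 hpf 3 passed, 2 higher and 1 lower, against 6.84% of all probe sets, 2.55% higher and 4.29% lower. With the replicate block 6 passed, against 12.7% of all probe sets. At 36 hpf 3 passed between the tissues, 2 higher and 1 lower, against 2.37% of all probe sets, 0.845% higher and 1.52% lower. For the ages in embryos limma called 0, against 0.194% of all probe sets, 0.0387% higher and 0.155% lower, and 2 genes had an unadjusted p under 0.05, as had 4.54% of all probe sets.

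**Figure D3:**
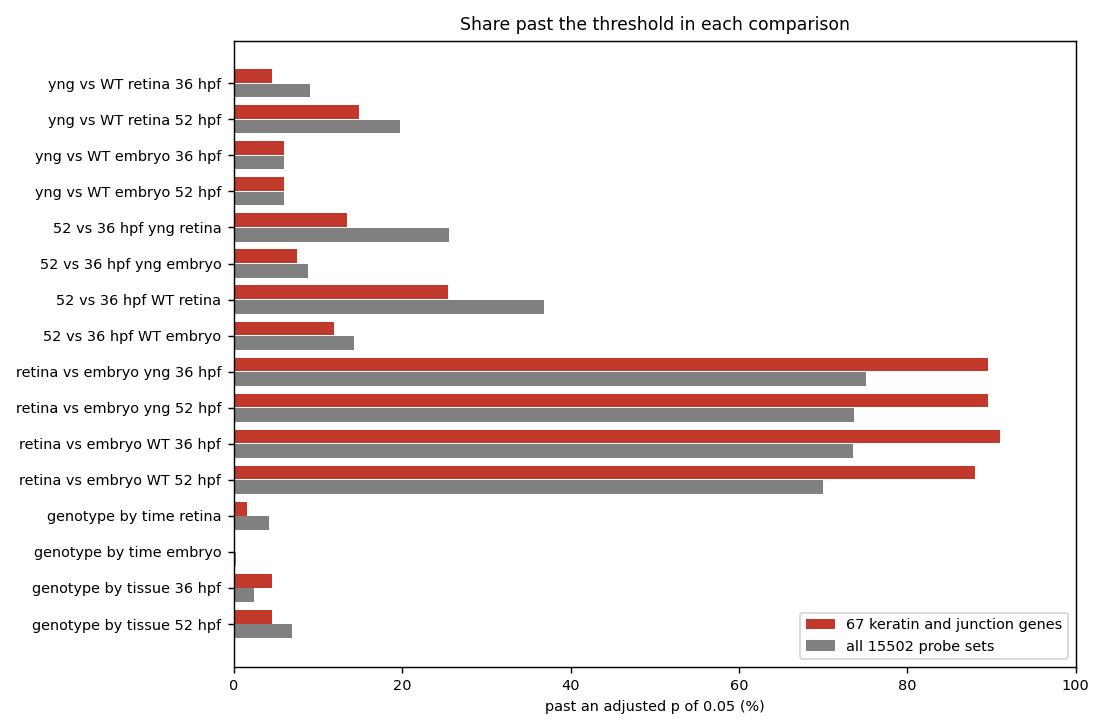
Percent past an adjusted p of 0.05 in each comparison, for the 67 genes (red bars) and for all 15502 probe sets (grey bars). The red bar exceeds the grey one in the 4 retina-against-embryo comparisons. It is slightly above it in genotype by tissue at 36 hpf, where it stands for 3 genes, and is level with it or shorter in the others.

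Keratin intensity was far lower in retinas than in embryos. The summed intensity of the 15 keratins was 623 to 896 in retina arrays and 42388 to 59133 in embryo arrays. Under both scalings 14 of the 15 were lower in retinas in every comparison, against 15.6% of all probe sets. The median keratin difference was between -4.68 and -4.07 over the 4 comparisons, against a median over all probe sets of 0.37 to 0.40. krt4, a keratin of the outer epidermis, was listed at 0 in 11 of 12 retina arrays and at 20.6 in WT retina 52 hpf replicate 1. In embryos krt4 read 11285, 11023 and 12343 in yng embryos at 52 hpf, against 10778, 9898 and 12196 in WT embryos at 52 hpf. At 36 hpf krt4 read 10906, 10537 and 12156 in yng embryos, against 10526, 9789 and 12149 in WT embryos. krt97 was listed at 0 in all 12 retina arrays, and in embryos it read 4014, 5288 and 4864 in yng embryos at 52 hpf, against 3331, 4127 and 4408 in WT embryos at 52 hpf. At 36 hpf krt97 read 4204, 5361 and 4794 in yng embryos, against 3672, 4539.7 and 4762 in WT embryos. Both were thus bright in every embryo array and at or near 0 in every retina array, and all 4 tissue comparisons called them lower.

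The type I keratin krt1-19e read 114, 104 and 97.1 in yng retinas at 52 hpf, against 188, 89.0 and 144 in WT retinas at 52 hpf. At 36 hpf krt1-19e read 129.5, 80.2 and 120.2 in yng retinas, against 149.5, 81.1 and 107 in WT retinas. In embryos krt1-19e read 9507, 9472 and 9094 in yng embryos at 52 hpf, against 10649, 10026 and 11128 in WT embryos at 52 hpf. At 36 hpf krt1-19e read 7372, 8085 and 7422 in yng embryos, against 8466, 8521 and 9439 in WT embryos. All retina arrays lay below all embryo arrays, with differences of -5.99 ± 0.20 (SE), adjusted p = 2.95e-16 in yng and -5.90 ± 0.20 (SE), adjusted p = 3.78e-16 in WT at 52 hpf, and -5.54 (adjusted p = 1.21e-15) in yng and -5.73 (adjusted p = 6.30e-16) in WT at 36 hpf. krt18a.1, which with krt8 makes the filament pair of simple epithelia, also had the gap. It ranged over 178 to 417 in retinas and 3648 to 4713 in embryos. Its tissue differences were -3.89 (adjusted p = 1.01e-15) in yng and -3.66 (adjusted p = 2.73e-15) in WT at 52 hpf. krt5, krt8 and krt18a.1 are neighbours in the genome, as are krt17 and krt91, krt1-19d and krt1-19e, krt15 and krt99, and krt93 and krt94. krt93 was the exception to the tissue gap, with 60.7 to 149 in retinas and 107 to 142 in embryos. Its tissue difference was 0.57 (adjusted p = 0.00366) in yng at 52 hpf and 0.36 (adjusted p = 0.0478) in yng at 36 hpf, and on the deposited scale these turned to 0.09 and -0.14, and it did not pass in WT (-0.03, adjusted p = 0.865 at 52 hpf).

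krt91 was lower in yng than in WT embryos at 36 hpf. krt91 read 2888, 2541 and 2734 in yng embryos at 36 hpf, against 6514, 6908 and 7720.4 in WT embryos at 36 hpf. The groups did not overlap and the difference was -1.37 ± 0.24 (SE), adjusted p = 0.00113; this call was lost with a log offset of 1 (log2 -1.38, adjusted p 0.0537). At 52 hpf krt91 read 6148, 5271 and 6096 in yng embryos, against 8057, 9520.2 and 9814 in WT embryos. The arrays again did not overlap, but the difference was -0.71 ± 0.24 (SE), adjusted p = 0.0997, and adjusted p = 0.0408 with the replicate number as a block. A second krt91 probe set gave -0.65 (adjusted p = 0.0106) at 52 hpf. With age krt91 was higher at 52 hpf in yng embryos by 1.09 ± 0.24 (SE), adjusted p = 0.00575, lost with a log offset of 1 (log2 1.097, adjusted p 0.115). WT embryos also read higher at 52 hpf without overlap, but the difference did not pass (0.43, adjusted p = 0.292). In retinas krt91 was dim in all groups, with values of 5.82 to 29.2. The log offset makes the genotype difference of such dim values smaller than the true one. The difference between retina and embryo given next therefore cannot show that the genotype effect itself differed. The genotype difference at 36 hpf differed between retina and embryo by 1.32 ± 0.34 (SE), adjusted p = 0.0431, and that call was lost on the deposited scale, with a log offset of 1, in a fit on the groups compared alone and without yng embryo 36 hpf replicate 1 or 2 or 3 or yng retina 36 hpf replicate 1 or 3 or WT embryo 36 hpf replicate 1 or 2 or 3 or WT retina 36 hpf replicate 2 or 3 (log2 1.07 to 1.37, adjusted p 0.0535 to 0.384).

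krt99 was lower in yng retinas at 52 hpf. It read 35.8, 29.6 and 30.4 in yng retinas at 52 hpf, against 81.0, 82.3 and 79.3 in WT retinas at 52 hpf, so all 3 yng arrays lay below all 3 WT arrays, a difference of -1.04 ± 0.14 (SE), adjusted p = 7.19e-06. The 36 listed skin and other epithelial genes that are not members summed to 5189 to 5591 in yng retinas and 9437 to 9925 in WT retinas at 52 hpf. Without tfap2a the other 35 summed to 2113 to 2393 in yng and 2216 to 2447 in WT, so those ranges overlapped. Of these 35, anxa1a (-1.09, adjusted p = 2.53e-05) and st14a (-0.55, adjusted p = 0.00377) were lower in yng, and anxa1c was higher (0.69, adjusted p = 0.00141). The part of skin tissue in the krt99 difference was not tested. At 36 hpf krt99 was low in both, with 6.44, 0.64 and 10.3 in yng retinas, against 10.3, 14.9 and 3.65 in WT retinas. The log offset makes the genotype difference of such dim values smaller than the true one. The interaction with age given below therefore cannot show that the genotype effect itself changed. The values at 52 hpf were above those at 36 hpf in both genotypes, by 0.92 ± 0.14 (SE), adjusted p = 2.13e-05 in yng and 1.72 ± 0.14 (SE), adjusted p = 2.79e-09 in WT. The age difference was smaller in yng, with an interaction of -0.80 ± 0.19 (SE), adjusted p = 0.0161; that call was lost with a log offset of 1, in a fit on the groups compared alone and without yng retina 36 hpf replicate 3 (log2 -0.82 to -0.68, adjusted p 0.0559 to 0.199). In embryos krt99 read 613, 556 and 549 in yng embryos at 52 hpf, against 671, 692 and 738 in WT embryos at 52 hpf. At 36 hpf krt99 read 588, 539 and 491 in yng embryos, against 714, 621 and 604 in WT embryos. The embryo differences were -0.30 (adjusted p = 0.266) at 52 hpf and -0.21 (adjusted p = 0.453) at 36 hpf, and the genotype difference at 52 hpf was more negative in retinas than in embryos, a difference of -0.75 ± 0.19 (SE), adjusted p = 0.0189, a call lost with a log offset of 1, with a log offset of 64 and without yng embryo 52 hpf replicate 1 or yng retina 52 hpf replicate 2 (log2 -0.997 to -0.37, adjusted p 0.0518 to 0.091).

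krt93 was higher in yng retinas at both ages. At 52 hpf krt93 read 149, 149 and 90.7 in yng retinas, against 85.7, 76.2 and 88.1 in WT retinas, without overlap, and the difference was 0.55 ± 0.16 (SE), adjusted p = 0.0176. It was lost in a fit on the groups compared alone and without yng replicate 1 or 2 or WT replicate 2 (log2 0.43 to 0.55, adjusted p 0.0642 to 0.11). At 36 hpf krt93 read 120.1, 147 and 93.1 in yng retinas, against 60.7, 93.9 and 79.1 in WT retinas; the groups overlapped and the difference of 0.51 ± 0.16 (SE), adjusted p = 0.049999 sat at the threshold, and was lost with a log offset of 1, in a fit on the groups compared alone and without yng replicate 1 or 2 or WT replicate 1 or 3 (log2 0.38 to 0.57, adjusted p 0.0542 to 0.272). The run record of yng retina 36 hpf replicate 1 lists a filling error of the fluidics station; without that array the krt93 difference at 36 hpf was 0.49 (adjusted p = 0.131). In yng retinas at 52 hpf replicate 3 had the lowest krt93 value, and this array also had the lowest sum of 6 lens markers: the sums were 3032, 3721 and 450 in yng retinas at 52 hpf, against 183, 150 and 186 in WT retinas at 52 hpf. At 36 hpf they were 2344, 1375 and 402 in yng retinas, against 531, 413 and 789 in WT retinas. The part of lens tissue in the yng retina results was not tested.

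With age krt18a.1 was lower in retinas of both genotypes, and its partner krt8 was lower in yng retinas. krt18a.1 read 203, 215 and 195 at 52 hpf, against 265, 329 and 339 at 36 hpf, in yng retinas. In WT retinas it read 178, 234 and 263 at 52 hpf, against 273, 395 and 417 at 36 hpf. Neither genotype's ages overlapped, and the differences were -0.59 ± 0.14 (SE), adjusted p = 0.00304 in yng and -0.71 ± 0.14 (SE), adjusted p = 4.11e-04 in WT. krt8 read 37.0, 28.4 and 31.6 at 52 hpf, against 73.2, 71.8 and 109 at 36 hpf, in yng retinas, a difference of -1.14 ± 0.23 (SE), adjusted p = 7.60e-04. In WT retinas krt8 read 57.0, 41.8 and 70.2 at 52 hpf, against 64.5, 60.6 and 122 at 36 hpf; the ages overlapped and the difference was -0.54 ± 0.23 (SE), adjusted p = 0.0776, and adjusted p = 0.00101 with the replicate number as a block. Between genotypes at 52 hpf krt8 was below WT in every yng array without passing the threshold (-0.57, adjusted p = 0.0983), and adjusted p = 0.00108 with the replicate number as a block.

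krt1-19d was lower at 52 hpf in yng retinas, with 2.33, 14.8 and 14.6 at 52 hpf, against 20.05, 26.6 and 29.2 at 36 hpf. All these values are dim and the difference was -0.71 ± 0.21 (SE), adjusted p = 0.0137, lost with a log offset of 64, over the mean of the gene's probe sets and without yng 36 hpf replicate 3 or yng 52 hpf replicate 1 (log2 -0.64 to -0.32, adjusted p 0.0604 to 0.123). A second krt1-19d probe set gave 0.03 in the same comparison. WT retinas also had less krt1-19d with age, with 9.15, 4.18 and 9.74 at 52 hpf, against 17.3, 16.3 and 14.8 at 36 hpf. The difference between these dim values was -0.58 ± 0.21 (SE), adjusted p = 0.0334. In WT embryos krt1-19d ran the other way, with 395, 333 and 358 at 52 hpf, against 185, 169.8 and 175 at 36 hpf, a difference of 0.91 ± 0.21 (SE), adjusted p = 0.00466. krt94 read 23.7, 14.0 and 27.6 at 52 hpf, against 4.17, 0 and 6.68 at 36 hpf, in yng retinas, a difference between dim values of 0.79 ± 0.22 (SE), adjusted p = 0.0103, lost with a log offset of 64 and without yng 36 hpf replicate 2 or yng 52 hpf replicate 3 (log2 0.32 to 0.67, adjusted p 0.0565 to 0.102). krt15, a type I keratin of stratified epithelia in mammals, was higher with age in embryos of both genotypes. It read 546, 689 and 649 at 52 hpf, against 239, 294 and 209 at 36 hpf, in yng embryos, and 604, 771 and 896 at 52 hpf, against 300.0, 299 and 393 at 36 hpf, in WT embryos. The ages did not overlap, and the differences were 1.28 ± 0.27 (SE), adjusted p = 0.00427 in yng and 1.16 ± 0.27 (SE), adjusted p = 0.00537 in WT, both lost with a log offset of 1 (adjusted p = 0.214 in yng and 0.215 in WT).

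The desmosomal, plakin and EpCAM genes showed the same tissue gap. Under both scalings 8 of 9 were lower in retinas in all 4 comparisons, against 15.6% of all probe sets, and pkp4, a plakophilin relative of adherens junctions, passed in 1. The summed intensity of the 9 was 845 to 1731 in retina arrays and 17049 to 20937 in embryo arrays. epcam, which encodes the epithelial cell adhesion molecule, was listed at 0 in 10 of 12 retina arrays and at 4.21 and 2.80 in the other two. In embryos epcam read 5773, 4374 and 5123 in yng embryos at 52 hpf, against 5259, 4287 and 4834 in WT embryos at 52 hpf. At 36 hpf epcam read 5225, 4336 and 5038 in yng embryos, against 4493, 3828 and 4720.0 in WT embryos. ppl, the plakin periplakin, read 20.4, 21.3 and 20.2 in yng retinas at 52 hpf, against 27.3, 18.6 and 16.4 in WT retinas at 52 hpf. At 36 hpf ppl read 15.3, 26.5 and 19.3 in yng retinas, against 22.5, 25.2 and 13.06 in WT retinas. In embryos ppl read 3911, 4573 and 4228 in yng embryos at 52 hpf, against 3413, 4074 and 4201 in WT embryos at 52 hpf. At 36 hpf ppl read 4222, 4789 and 4600.4 in yng embryos, against 4134, 4374 and 4379 in WT embryos. Every retina array lay below every embryo array, with differences of -6.52 (adjusted p = 4.27e-20) in yng and -6.40 (adjusted p = 5.71e-20) in WT at 52 hpf. pkp3a, a desmosomal plakophilin, ranged over 0 to 13.9 in retinas and 2432 to 3231 in embryos. In yng fish at 36 hpf pkp3a read 11.2, 7.14 and 0 in retinas, against 3066, 3231 and 2852 in embryos.

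jupa, the gene of plakoglobin, which serves both desmosomes and cadherin junctions, rose with age in retinas of both genotypes. It read 919, 820.3 and 1057 at 52 hpf, against 405, 293 and 342 at 36 hpf, in yng retinas. In WT retinas jupa read 982, 768 and 770.1 at 52 hpf, against 369, 431 and 351 at 36 hpf. All 6 retina arrays at 52 hpf were above all 6 at 36 hpf, and the differences were 1.25 ± 0.13 (SE), adjusted p = 1.37e-07 in yng and 0.94 ± 0.13 (SE), adjusted p = 3.74e-06 in WT. In embryos jupa read 2987, 2724 and 2766 in yng embryos at 52 hpf, against 3015, 2603 and 2735 in WT embryos at 52 hpf. At 36 hpf jupa read 3046, 2422 and 2888 in yng embryos, against 2903, 2667 and 2627 in WT embryos. The age difference in embryos was -0.02 (adjusted p = 0.973) in yng and 0.01 (adjusted p = 0.984) in WT. jupa passed in no genotype comparison, and the interaction of genotype and age in retinas was 0.31 (adjusted p = 0.506). Its tissue difference was -1.28 (adjusted p = 1.65e-08) in yng at 52 hpf and -2.55 (adjusted p = 1.96e-13) in yng at 36 hpf.

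In yng embryos all 9 genes of this class had differences above 0 at both ages, where the median over all probe sets was 0.01. Some were close to 0: pkp3a (0.01), jupa (0.03) and pkp4 (0.03) at 52 hpf, and jupa (0.05) at 36 hpf. The 9 genes were read on the same arrays, so their signs do not count as independent results. At each age 1 of 9 passed the threshold as higher, against 2.77% of all probe sets at 52 hpf and 2.78% at 36 hpf. pkp1b, a desmosomal plakophilin, read 1251, 1317 and 1424 in yng embryos at 36 hpf, against 700.4, 838 and 855 in WT embryos at 36 hpf. The groups did not overlap and the difference was 0.78 ± 0.15 (SE), adjusted p = 0.00231. At 52 hpf pkp1b read 1181, 1368 and 1308 in yng embryos, against 838, 1024 and 1152 in WT embryos, a difference of 0.36 ± 0.15 (SE), adjusted p = 0.203. In retinas at 36 hpf pkp1b read 50.7, 57.4 and 51.0 in yng retinas at 36 hpf, against 42.3, 78.0 and 64.7 in WT retinas at 36 hpf, and the genotype difference at 36 hpf was lower in retinas than in embryos, a difference of -0.98 ± 0.21 (SE), adjusted p = 0.01. evpla, the gene of the plakin envoplakin, read 616, 493 and 576 in yng embryos at 52 hpf, against 442, 263 and 381 in WT embryos at 52 hpf. Every yng array was above every WT array, by 0.67 ± 0.18 (SE), adjusted p = 0.0321, and the call was lost on the deposited scale, with a log offset of 1, in a fit on the groups compared alone and without yng replicate 1 or 3 or WT replicate 2 or 3 (log2 0.46 to 0.73, adjusted p 0.0503 to 0.208). At 36 hpf the evpla difference was 0.62 (adjusted p = 0.0508), and adjusted p = 0.00835 with the replicate number as a block. No gene of the class passed between yng and WT retinas at either age; their differences ran between -0.18 and 0.27 at 52 hpf and between -0.31 and 0.43 at 36 hpf.

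Claudins were split. Of 24, 15 were lower in retinas in all 4 comparisons under both scalings, against 15.6% of all probe sets. In each comparison 5 to 7 were called higher, against 49.8% to 51.8% of all probe sets. cldng read 9007, 7559.9 and 8206 in yng retinas at 52 hpf, against 8870.2, 7700.1 and 8343 in WT retinas at 52 hpf. At 36 hpf cldng read 7430.3, 6481 and 6721 in yng retinas, against 6817, 6625 and 6207 in WT retinas. In embryos cldng read 10483, 9788 and 9719 in yng embryos at 52 hpf, against 9562, 8135 and 8852 in WT embryos at 52 hpf. At 36 hpf cldng read 9936, 8714 and 9209.8 in yng embryos, against 8628, 7606 and 8197 in WT embryos. In 52 hpf fish cldng did not pass between the tissues (-0.16, adjusted p = 0.217 in yng and 0.01 (adjusted p = 0.932) in WT at 52 hpf). cldni read 66.1, 55.1 and 53.1 in yng retinas at 52 hpf, against 48.7, 59.2 and 57.5 in WT retinas at 52 hpf. At 36 hpf cldni read 64.6, 72.2 and 58.7 in yng retinas, against 55.8, 49.6 and 55.0 in WT retinas. In embryos cldni read 5267, 5970.0 and 5423 in yng embryos at 52 hpf, against 5728, 5404 and 5965 in WT embryos at 52 hpf. At 36 hpf cldni read 5059, 5438 and 5179.8 in yng embryos, against 5093, 4829.9 and 5218 in WT embryos. Every retina array lay below every embryo array, with differences of -5.91 (adjusted p = 2.51e-21) in yng and -5.99 (adjusted p = 1.95e-21) in WT at 52 hpf. The neighbours cldne and cldnf were listed at 0 in 11 and 12 of 12 retina arrays, while cldnj, next to them in the genome, read 216 to 369.5 in retinas and 183 to 281 in embryos.

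Several claudins read higher in retinas. cldnd read 125, 119 and 132 in yng retinas at 52 hpf, against 113, 137 and 127 in WT retinas at 52 hpf. At 36 hpf cldnd read 127, 114 and 125 in yng retinas, against 93.5, 136 and 123 in WT retinas. In embryos cldnd read 83.9, 90.6 and 76.7 in yng embryos at 52 hpf, against 96.2, 109 and 92.8 in WT embryos at 52 hpf. At 36 hpf cldnd read 72.0, 88.4 and 86.3 in yng embryos, against 75.0, 91.6 and 66.0 in WT embryos. The differences were 0.97 (adjusted p = 9.66e-07) in yng and 0.75 (adjusted p = 2.98e-05) in WT at 52 hpf, and 0.99 (adjusted p = 6.34e-07) in yng and 1.04 (adjusted p = 4.24e-07) in WT at 36 hpf; on the deposited scale 3 of these 4 calls held. cldn15b was called higher in all 4 comparisons, but in 1 of 4 on the deposited scale. In WT at 52 hpf cldn15b read 232, 219 and 267 in retinas, against 197, 134 and 225 in embryos, a difference of 0.84 (adjusted p = 2.03e-04). cldn12 was called higher in all 4 too; in WT at 52 hpf (0.32, adjusted p = 0.0142) it turned to -0.02 on the deposited scale, as cldnj did in yng at 36 hpf (-0.06) and cldnk in 3 comparisons (-0.01, -0.09 and -0.03).

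Among the called genotype differences of the 67 genes the largest was in cldn11b. It and cldn11a have a mammalian relative that is a claudin of myelin and of Sertoli cells. cldn11b read 248, 270.1 and 234 in yng retinas at 52 hpf, against 80.0, 84.6 and 70.2 in WT retinas at 52 hpf. At 36 hpf cldn11b read 306, 304 and 302 in yng retinas, against 90.3, 169 and 150.4 in WT retinas. Every yng array was above every WT array at both ages, by 1.57 ± 0.15 (SE), adjusted p = 8.34e-08 at 52 hpf and 1.08 ± 0.15 (SE), adjusted p = 3.52e-05 at 36 hpf. In WT retinas cldn11b was lower at 52 than at 36 hpf, a difference of -0.79 ± 0.15 (SE), adjusted p = 1.81e-04. In embryos cldn11b read 128, 157 and 139 in yng embryos at 52 hpf, against 99.7, 108 and 88.9 in WT embryos at 52 hpf. At 36 hpf cldn11b read 154, 170.4 and 143 in yng embryos, against 91.6, 100.1 and 128 in WT embryos. The embryo differences were 0.45 ± 0.15 (SE), adjusted p = 0.0778 at 52 hpf and 0.48 ± 0.15 (SE), adjusted p = 0.0556 at 36 hpf, and with the replicate number as a block both passed (adjusted p = 0.0248 at 52 hpf and 0.0159 at 36 hpf). The genotype difference at 52 hpf was larger in retinas than in embryos by 1.12 ± 0.21 (SE), adjusted p = 0.00135. In yng at 52 hpf cldn11b was above embryos in every retina array (1.28, adjusted p = 1.63e-07), while WT retinas and embryos at 52 hpf did not differ past the threshold (0.16, adjusted p = 0.345).

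cldn11a read 103, 108 and 57.2 in yng retinas at 52 hpf, against 41.2, 33.7 and 45.4 in WT retinas at 52 hpf. At 36 hpf cldn11a read 86.6, 108 and 78.5 in yng retinas, against 32.1, 39.0 and 42.6 in WT retinas. The genotypes did not overlap at either age, and the differences were 0.91 ± 0.16 (SE), adjusted p = 3.20e-04 at 52 hpf and 0.93 ± 0.16 (SE), adjusted p = 6.53e-04 at 36 hpf. The lowest yng value at 52 hpf was again in replicate 3, the array with the low lens sum. In embryos cldn11a was much brighter, at 1028, 1116 and 1054 in yng embryos at 52 hpf, against 842, 961 and 868 in WT embryos at 52 hpf. At 36 hpf cldn11a read 556, 742 and 618 in yng embryos, against 594, 629 and 779 in WT embryos. The embryo differences did not pass (0.25, adjusted p = 0.515 at 52 hpf and -0.03 (adjusted p = 0.96) at 36 hpf). At 36 hpf the genotype difference was larger in retinas than in embryos by 0.96 ± 0.23 (SE), adjusted p = 0.0271, a call lost with a log offset of 64 and without yng embryo 36 hpf replicate 1 or 3 or yng retina 36 hpf replicate 2 or WT embryo 36 hpf replicate 3 or WT retina 36 hpf replicate 1 or 2 (log2 0.64 to 0.94, adjusted p 0.0526 to 0.0872). With age cldn11a rose in yng embryos by 0.70 ± 0.16 (SE), adjusted p = 0.00851. In WT embryos the ages did not overlap either, but the cldn11a difference did not pass (0.42, adjusted p = 0.102).

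cldn12 was the third claudin to pass in yng retinas at 52 hpf. It read 1079, 1378 and 1334 in yng retinas at 52 hpf, against 802, 751 and 788 in WT retinas at 52 hpf. At 36 hpf cldn12 read 1247, 1371 and 1233 in yng retinas, against 969.7, 1109.8 and 1270.0 in WT retinas. All yng arrays exceeded all WT arrays at 52 hpf, by 0.68 ± 0.11 (SE), adjusted p = 9.35e-05, and at 36 hpf the groups overlapped (0.21, adjusted p = 0.288). In embryos cldn12 read 754, 952 and 905 in yng embryos at 52 hpf, against 788, 833 and 759 in WT embryos at 52 hpf. At 36 hpf cldn12 read 808, 968 and 930.1 in yng embryos, against 784, 773 and 963 in WT embryos. The genotype difference at 52 hpf was larger in retinas than in embryos by 0.56 ± 0.16 (SE), adjusted p = 0.0322, which was lost on the deposited scale, over the mean of the gene's probe sets and without yng embryo 52 hpf replicate 1 or yng retina 52 hpf replicate 2 or 3 or WT embryo 52 hpf replicate 1 or 2 or WT retina 52 hpf replicate 1 or 2 or 3 (log2 0.46 to 0.56, adjusted p 0.0544 to 0.203). A second cldn12 probe set gave 0.36 (adjusted p = 0.271) between yng and WT retinas at 52 hpf. WT retinas had less cldn12 at 52 than at 36 hpf, a difference of -0.56 ± 0.11 (SE), adjusted p = 3.51e-04.

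cldn5a, a claudin of brain vessels and the neural tube lining, fell with age in WT retinas and WT embryos. In WT retinas cldn5a read 520.0, 331 and 691 at 52 hpf, against 1483, 847 and 1581 at 36 hpf, without overlap and with -1.35 ± 0.33 (SE), adjusted p = 0.0028. In WT embryos it read 587, 325 and 418 at 52 hpf, against 1168, 608 and 925 at 36 hpf, a difference of -1.07 ± 0.33 (SE), adjusted p = 0.0342, lost on the deposited scale, in a fit on the groups compared alone and without WT 36 hpf replicate 1 or 3 or WT 52 hpf replicate 2 or 3 (log2 -1.07 to -0.81, adjusted p 0.053 to 0.173). The yng retinas read 889.7, 604 and 1042 at 52 hpf, against 1072, 1019 and 1529 at 36 hpf, and did not pass on this probe set (-0.53, adjusted p = 0.275), although 2 dimmer cldn5a probe sets did (-0.54, adjusted p = 0.00518, and -0.81, adjusted p = 0.00281). The same 2 probe sets were higher in yng than in WT retinas at 52 hpf (0.57, adjusted p = 0.00478, and 0.89, adjusted p = 0.00168), where the brightest gave 0.73 (adjusted p = 0.142), and adjusted p = 0.0181 with the replicate number as a block. Replicates varied widely on the brightest probe set: its standard error was 0.33.

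cldn15la, a claudin of the zebrafish intestine, was higher with age in embryos. It read 662, 468 and 533 at 52 hpf, against 216, 169 and 143 at 36 hpf, in yng embryos, and 865, 752 and 808 at 52 hpf, against 283, 279.9 and 288 at 36 hpf, in WT embryos. The ages did not overlap, and the differences were 1.55 ± 0.24 (SE), adjusted p = 2.56e-04 in yng and 1.48 ± 0.24 (SE), adjusted p = 2.11e-04 in WT. Each yng embryo value lay below every WT value of its age, but the genotype differences did not pass (-0.57, adjusted p = 0.21 at 52 hpf and -0.64 (adjusted p = 0.14) at 36 hpf). cldn3c was higher in yng embryos at 36 hpf, with 2074, 1553 and 1690.4 in yng embryos at 36 hpf, against 1376, 1249 and 1173 in WT embryos at 36 hpf, a difference of 0.50 ± 0.14 (SE), adjusted p = 0.0421. That call was lost on the deposited scale, with a log offset of 1, in a fit on the groups compared alone and without yng replicate 1 or 3 or WT replicate 2 or 3 (log2 0.38 to 0.53, adjusted p 0.0579 to 0.2). cldn34a, dim in all groups, was lower at 52 hpf in WT embryos, with 25.6, 22.2 and 24.9 at 52 hpf, against 59.9, 49.7 and 29.2 at 36 hpf, a difference of -0.69 ± 0.18 (SE), adjusted p = 0.0123, lost with a log offset of 1, in a fit on the groups compared alone and without WT 36 hpf replicate 1 or 2 (log2 -1.07 to -0.53, adjusted p 0.0541 to 0.0867). cldnj read 309, 369.5 and 309 at 52 hpf, against 216, 277 and 218 at 36 hpf, in yng retinas, a difference of 0.38 ± 0.12 (SE), adjusted p = 0.024, lost in a fit on the groups compared alone and without yng 36 hpf replicate 1 or 3 or yng 52 hpf replicate 2 (log2 0.32 to 0.38, adjusted p 0.0832 to 0.115).

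**Figure D4:**
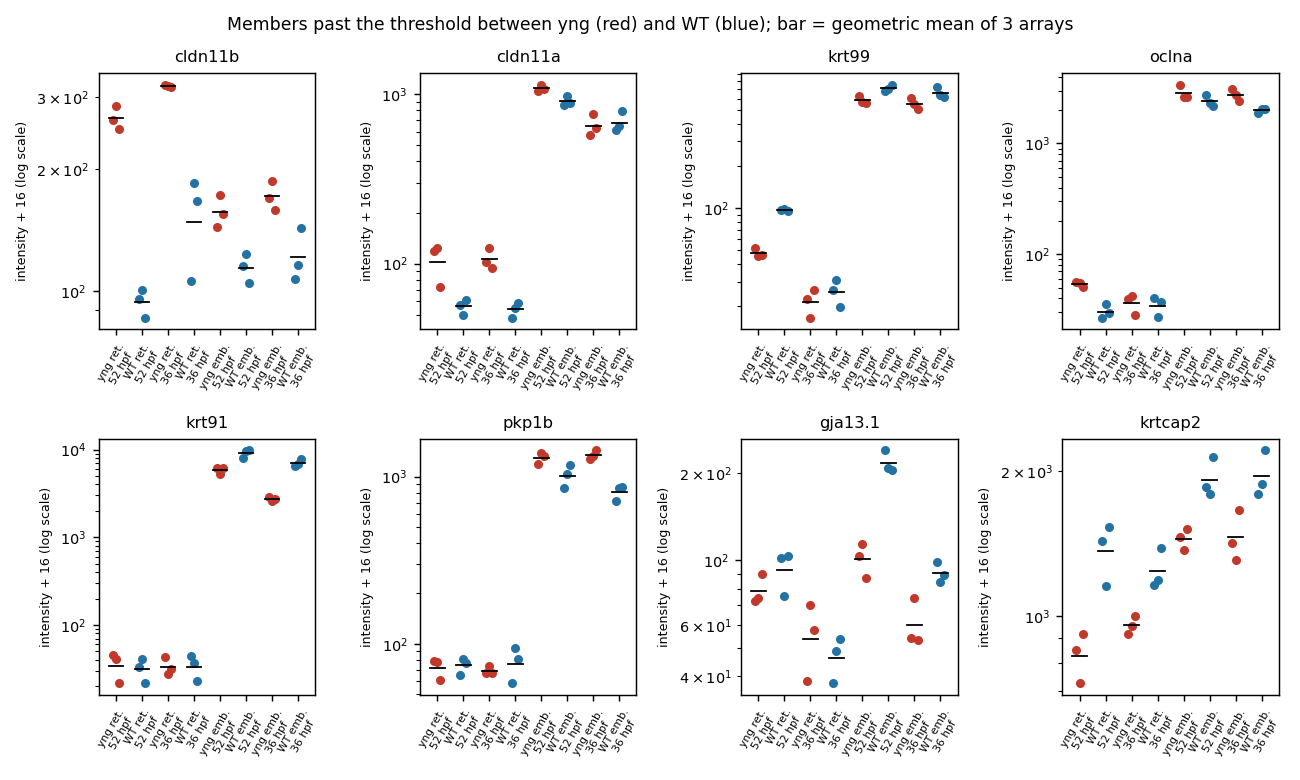
Intensity plus 16 (log scale) of 8 genes that passed between yng (red) and WT (blue) in at least 1 comparison, 1 point per array and a bar at the geometric mean of 3. The red cldn11b and cldn11a points lie above the blue ones in retinas at both ages, krt99 is lower in yng retinas at 52 hpf, and krt91, gja13.1 and krtcap2 are lower in yng embryos.

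Of the occludin and zonula occludens genes, 3 of 4 were lower in retinas throughout, against 15.6% of all probe sets, and tjp2b was not. oclna, an occludin, read 40.1, 39.4 and 34.6 in yng retinas at 52 hpf, against 10.8, 19.5 and 13.3 in WT retinas at 52 hpf. At 36 hpf oclna read 23.6, 26.2 and 12.2 in yng retinas, against 23.9, 11.3 and 21.0 in WT retinas. In embryos oclna read 3366, 2632 and 2614 in yng embryos at 52 hpf, against 2700.2, 2302 and 2170.3 in WT embryos at 52 hpf. At 36 hpf oclna read 3077, 2732 and 2392 in yng embryos, against 1870.0, 2021 and 2022 in WT embryos. Its tissue differences were -5.39 (adjusted p = 7.22e-17) in yng and -5.94 (adjusted p = 1.38e-17) in WT at 52 hpf. Within retinas at 52 hpf every yng array was above every WT array, by 0.79 ± 0.17 (SE), adjusted p = 0.00157, between dim values. In embryos the yng values were above WT on average without passing (0.25, adjusted p = 0.542 at 52 hpf and 0.48 (adjusted p = 0.105) at 36 hpf, and adjusted p = 0.0457 with the replicate number as a block). oclnb, the other occludin, read 12.4, 20.2 and 23.3 in yng retinas at 52 hpf, against 20.1, 14.1 and 21.9 in WT retinas at 52 hpf. At 36 hpf oclnb read 19.3, 19.4 and 20.5 in yng retinas, against 6.55, 21.1 and 0 in WT retinas. In embryos oclnb read 402, 359 and 458 in yng embryos at 52 hpf, against 364, 418 and 326 in WT embryos at 52 hpf. At 36 hpf oclnb read 422, 385 and 477 in yng embryos, against 394, 359 and 358 in WT embryos. Its tissue difference was -2.995 (adjusted p = 3.24e-11) in WT at 52 hpf. tjp3 was listed at 0 in all 12 retina arrays and read 102 to 203 in embryos.

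tjp2b, which encodes a zonula occludens protein, was higher in WT retinas than in WT embryos and lower in yng than in WT retinas. It read 988, 1161 and 1086 in yng retinas at 52 hpf, against 1401, 1896 and 1722 in WT retinas at 52 hpf. At 36 hpf tjp2b read 968, 1412 and 1212 in yng retinas, against 1424, 1919 and 2034 in WT retinas. In embryos tjp2b read 921, 1235 and 1112 in yng embryos at 52 hpf, against 849, 1223 and 1105 in WT embryos at 52 hpf. At 36 hpf tjp2b read 964, 1233 and 1127 in yng embryos, against 750.5, 1095 and 1024 in WT embryos. The tissue difference was 0.91 (adjusted p = 1.52e-04) in WT at 52 hpf and 1.24 (adjusted p = 3.69e-06) in WT at 36 hpf. In yng it was 0.33 (adjusted p = 0.0971) at 52 hpf and 0.44 (adjusted p = 0.0323) at 36 hpf. As deposited, the yng values at 36 hpf overlapped between the tissues. The normalization raised the median difference over all probe sets by 0.447 in that comparison. Between yng and WT retinas at 52 hpf the arrays did not overlap, and the difference was -0.56 ± 0.18 (SE), adjusted p = 0.0289, lost without yng replicate 1 or 2 or 3 or WT replicate 2 or 3 (log2 -0.59 to -0.45, adjusted p 0.0558 to 0.139). At 36 hpf it was -0.56 ± 0.18 (SE), adjusted p = 0.0513, just outside the threshold. A second tjp2b probe set gave -0.31 (adjusted p = 0.127) at 52 hpf. The interaction of genotype and tissue was -0.58 (adjusted p = 0.231) at 52 hpf, and adjusted p = 0.00146 with the replicate number as a block.

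Connexins differed from the other classes: their summed intensity was 5269 to 9665 in retina arrays and 4862 to 5945 in embryo arrays. These sums rest mainly on gjc4b and gja1b, which averaged 3129 and 1780 in WT retinas at 52 hpf, where gja2 averaged 155. In each comparison 10 or 11 of 13 were called higher in retinas, against 49.8% to 51.8% of all probe sets. On the deposited scale 2 of 13 kept that call in all 4, against 9.2% of all probe sets higher in all 4 under both scalings. gjc4b read 4525, 4989.8 and 4800.4 in yng retinas at 52 hpf, against 3486, 2512 and 3389 in WT retinas at 52 hpf. At 36 hpf gjc4b read 5079.8, 5286 and 5009 in yng retinas, against 4744, 4195 and 4822 in WT retinas. In embryos gjc4b read 3522, 2898 and 3224 in yng embryos at 52 hpf, against 2711, 2001 and 2620.1 in WT embryos at 52 hpf. At 36 hpf gjc4b read 3951, 3328 and 3966 in yng embryos, against 3333, 2949.6 and 3709 in WT embryos. The tissue differences were 0.86 (adjusted p = 6.23e-06) in yng and 0.57 (adjusted p = 6.28e-04) in WT at 52 hpf, and 0.73 (adjusted p = 4.04e-05) in yng and 0.73 (adjusted p = 4.67e-05) in WT at 36 hpf. gjb9b read 62.3, 57.8 and 71.2 in yng retinas at 52 hpf, against 51.2, 39.6 and 56.9 in WT retinas at 52 hpf. At 36 hpf gjb9b read 74.0, 67.8 and 70.7 in yng retinas, against 38.7, 55.4 and 63.6 in WT retinas. In embryos gjb9b read 35.1, 38.7 and 41.7 in yng embryos at 52 hpf, against 30.9, 30.6 and 29.4 in WT embryos at 52 hpf. At 36 hpf gjb9b read 24.7, 33.2 and 21.8 in yng embryos, against 12.8, 26.4 and 32.0 in WT embryos. No gjb9b retina value lay below any embryo value of the same genotype and age, and the differences were 0.99 (adjusted p = 2.28e-05) in yng and 0.95 (adjusted p = 4.44e-05) in WT at 52 hpf, and 1.53 (adjusted p = 6.18e-08) in yng and 1.37 (adjusted p = 3.79e-07) in WT at 36 hpf. gjc4a.1 was called higher in retinas in all 4, and in 3 on the deposited scale. At 52 hpf gjc4a.1 read 112, 139 and 109 in yng retinas, against 66.6, 85.2 and 65.6 in yng embryos, a difference of 1.09 (adjusted p = 1.44e-06). In WT at 52 hpf it read 87.1, 105 and 122 in retinas, against 57.9, 51.2 and 80.8 in embryos, a difference of 1.07 (adjusted p = 2.30e-06).

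Between yng and WT retinas at 52 hpf gjc4b did not overlap and differed by 0.69 ± 0.13 (SE), adjusted p = 4.35e-04. WT retinas had less gjc4b at 52 than at 36 hpf, a difference of -0.64 ± 0.13 (SE), adjusted p = 4.78e-04, and so had WT embryos, a difference of -0.48 ± 0.13 (SE), adjusted p = 0.0144, a call lost in a fit on the groups compared alone and without WT 36 hpf replicate 1 or 3 or WT 52 hpf replicate 2 (log2 -0.48 to -0.35, adjusted p 0.0506 to 0.101). The age difference in yng retinas was -0.13 (adjusted p = 0.535). The interaction of genotype and age in retinas was 0.51 (adjusted p = 0.153). In embryos at 52 hpf yng exceeded WT in every array (0.40, adjusted p = 0.0761, and adjusted p = 0.00228 with the replicate number as a block). gja2, next to gjb1a in the genome, read 193, 234 and 185 in yng retinas at 52 hpf, against 145, 156 and 165 in WT retinas at 52 hpf. At 36 hpf gja2 read 246, 256 and 223 in yng retinas, against 186, 214 and 211 in WT retinas. In embryos gja2 read 182, 168 and 156 in yng embryos at 52 hpf, against 171, 159 and 161 in WT embryos at 52 hpf. At 36 hpf gja2 read 202, 192 and 168 in yng embryos, against 193, 202 and 144 in WT embryos. Its yng values in retinas at 52 hpf were above all WT values, by 0.40 ± 0.12 (SE), adjusted p = 0.0204, lost in a fit on the groups compared alone and without yng replicate 2 or WT replicate 1 (log2 0.31 to 0.40, adjusted p 0.0583 to 0.119). The tissue difference of gja2 in WT at 52 hpf (0.42, adjusted p = 0.00411) turned to -0.07 on the deposited scale, and that of gjb8 (0.39, adjusted p = 0.0249) to -0.05.

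gja1b, the connexin gene best known from glia and heart, read 1458, 1662 and 1261 in yng retinas at 52 hpf, against 1726, 1858 and 1754 in WT retinas at 52 hpf. At 36 hpf gja1b read 2208, 3230.2 and 2244 in yng retinas, against 1895, 2380.1 and 2313 in WT retinas. In embryos gja1b read 1245, 1289 and 976 in yng embryos at 52 hpf, against 1697, 1883 and 1442 in WT embryos at 52 hpf. At 36 hpf gja1b read 1139.5, 1235 and 982 in yng embryos, against 1027, 1243 and 1109 in WT embryos. In yng retinas every array at 52 hpf was below every array at 36 hpf, a difference of -0.85 ± 0.15 (SE), adjusted p = 1.66e-04. In WT retinas the age difference was -0.38 ± 0.15 (SE), adjusted p = 0.0537, and adjusted p = 0.00243 with the replicate number as a block. In embryos the ages moved the other way in WT, by 0.55 ± 0.15 (SE), adjusted p = 0.0154, lost without WT 36 hpf replicate 1 or 3 or WT 52 hpf replicate 2 (log2 0.45 to 0.52, adjusted p 0.0589 to 0.089). In yng embryos the age difference was 0.01 (adjusted p = 0.981). At 52 hpf yng embryos were below WT embryos, a difference of -0.55 ± 0.15 (SE), adjusted p = 0.0309, without overlap, a call lost on the deposited scale, in a fit on the groups compared alone and without yng replicate 3 or WT replicate 1 or 2 (log2 -0.55 to -0.43, adjusted p 0.0633 to 0.176). The tissue difference was 1.49 (adjusted p = 2.12e-08) in yng and 1.27 (adjusted p = 2.73e-07) in WT at 36 hpf. At 52 hpf it was 0.64 (adjusted p = 8.10e-04) in yng and 0.34 (adjusted p = 0.0477) in WT. As deposited, the gja1b values at 52 hpf overlapped between the tissues in both genotypes. In WT at 52 hpf the normalization alone raised the median difference over all probe sets by 0.395, more than the gja1b difference.

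gja13.1 was the connexin with the largest genotype difference. It read 87.2, 98.1 and 70.9 in yng embryos at 52 hpf, against 223, 192 and 188 in WT embryos at 52 hpf. At 36 hpf gja13.1 read 38.1, 58.0 and 37.4 in yng embryos, against 82.6, 68.2 and 72.7 in WT embryos. At 52 hpf every yng embryo array lay below every WT embryo array, a difference of -1.07 ± 0.19 (SE), adjusted p = 9.16e-04. At 36 hpf the groups did not overlap either, but the difference was -0.62 ± 0.19 (SE), adjusted p = 0.0579, and adjusted p = 0.0384 with the replicate number as a block. In retinas gja13.1 read 56.5, 58.4 and 73.8 in yng retinas at 52 hpf, against 85.8, 59.4 and 87.7 in WT retinas at 52 hpf. At 36 hpf gja13.1 read 22.5, 54.1 and 41.6 in yng retinas, against 21.9, 32.97 and 37.5 in WT retinas. With age it was higher at 52 hpf in WT embryos by 1.18 ± 0.19 (SE), adjusted p = 1.77e-04 and in WT retinas by 0.85 ± 0.19 (SE), adjusted p = 0.00114. In yng embryos the age difference was 0.73 ± 0.19 (SE), adjusted p = 0.0161, lost in a fit on the groups compared alone and without yng 36 hpf replicate 1 or 3 or yng 52 hpf replicate 1 or 2 (log2 0.64 to 0.73, adjusted p 0.0523 to 0.0895), and in yng retinas it was 0.44 (adjusted p = 0.0913). gja3 and gja8b, the lens connexins, passed in no genotype comparison. At 52 hpf gja3 read 58.7, 63.4 and 44.3 in yng retinas, against 37.1, 44.2 and 36.6 in WT retinas. Every yng array of gja3 was above every WT array there (0.36, adjusted p = 0.168). Its lowest yng value was in replicate 3, the array with the low lens sum, and the part of lens tissue was not tested. gja8b read 58.0, 83.4 and 61.1 in yng retinas at 52 hpf, against 63.4, 49.9 and 66.0 in WT retinas at 52 hpf.

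**Figure D5:**
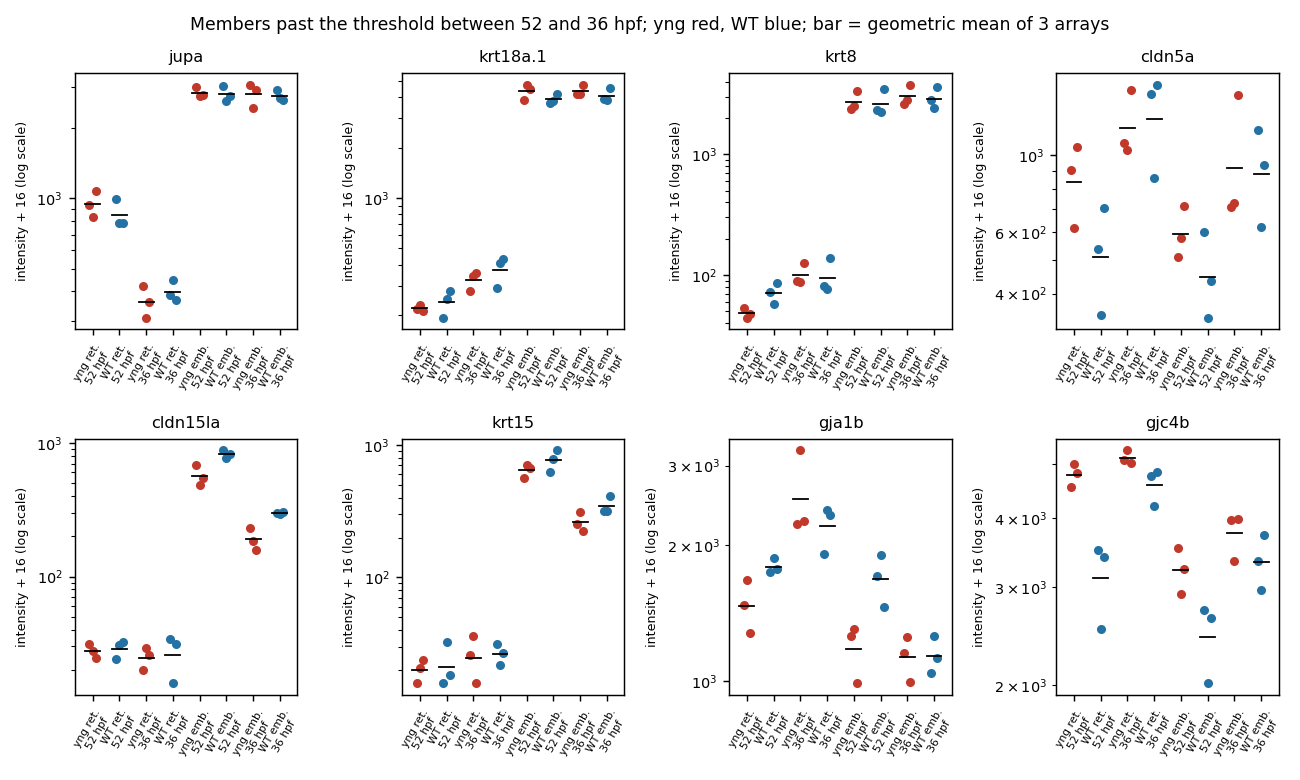
Intensity plus 16 (log scale) of 8 genes that passed between 52 and 36 hpf in at least 1 group, 1 point per array (yng red, WT blue) and a bar at the geometric mean of 3. jupa is higher and krt18a.1 lower in retinas at 52 hpf, cldn15la and krt15 are higher in embryos at 52 hpf, and gja1b is lower at 52 hpf in yng retinas.

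tp63, which encodes a transcription factor of basal epidermis, was low in retinas. It read 26.1, 18.9 and 40.8 in yng retinas at 52 hpf, against 31.3, 38.02 and 28.5 in WT retinas at 52 hpf. At 36 hpf tp63 read 26.4, 13.3 and 16.6 in yng retinas, against 18.6, 30.4 and 20.4 in WT retinas. In embryos tp63 read 608, 744 and 665 in yng embryos at 52 hpf, against 756, 818 and 768 in WT embryos at 52 hpf. At 36 hpf tp63 read 531, 675 and 655 in yng embryos, against 785, 792 and 784 in WT embryos. Every retina array lay below every embryo array, and the tissue differences were -3.55 (adjusted p = 1.29e-14) in yng and -3.64 (adjusted p = 9.05e-15) in WT at 52 hpf. All yng embryo arrays lay below all WT embryo arrays of their age, but no genotype difference passed (-0.23, adjusted p = 0.505 at 52 hpf and -0.33 (adjusted p = 0.232) at 36 hpf). krtcap2, the gene matched by name, was lower in yng in 3 of 4 comparisons. In retinas at 52 hpf krtcap2 read 835, 710.5 and 900.3 in yng retinas at 52 hpf, against 1415, 1141 and 1518 in WT retinas at 52 hpf, a difference of -0.65 ± 0.12 (SE), adjusted p = 3.62e-04. In embryos krtcap2 read 1445, 1353 and 1504 in yng embryos at 52 hpf, against 1837, 1774 and 2127 in WT embryos at 52 hpf. At 36 hpf krtcap2 read 1406, 1291 and 1648 in yng embryos, against 1781, 1863 and 2197 in WT embryos. Every yng array was below every WT array of the same tissue and age, and the embryo differences were -0.43 ± 0.12 (SE), adjusted p = 0.0354 at 52 hpf, lost on the deposited scale, in a fit on the groups compared alone and without yng replicate 1 or 2 or 3 or WT replicate 1 or 2 or 3 (log2 -0.47 to -0.35, adjusted p 0.0549 to 0.167), a difference of -0.43 ± 0.12 (SE), adjusted p = 0.0353 at 36 hpf, lost on the deposited scale, in a fit on the groups compared alone and without yng replicate 1 or 2 or WT replicate 1 or 2 or 3 (log2 -0.47 to -0.35, adjusted p 0.0555 to 0.169). In retinas at 36 hpf it read 903, 937 and 985 in yng retinas at 36 hpf, against 1142, 1173 and 1367 in WT retinas at 36 hpf, and the difference did not pass (-0.36, adjusted p = 0.0613).

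The 36 measured genes of the skin and epithelial list summed to 2849 to 9925 in retina arrays and 53987 to 61994 in embryo arrays. Of them, 28 were lower in yng and 29 in WT retinas than in embryos at 52 hpf, and 29 in yng and 30 in WT at 36 hpf. In the same comparisons 20.2% to 23.2% of all probe sets were lower. cdh1, the epithelial cadherin, averaged 1.09 in WT retinas and 518 in WT embryos at 52 hpf, and the protease-inhibitor gene spint2 averaged 15.5 in WT retinas and 1781 in WT embryos. Between yng and WT the list gave 1 higher and 3 lower in retinas and 3 higher and 3 lower in embryos at 52 hpf. Over all probe sets 10.0% were higher and 9.7% lower in retinas there, and 2.77% and 3.13% in embryos. At 36 hpf the list gave 0 higher and 2 lower in retinas and 1 higher and 2 lower in embryos. The shares over all probe sets were 4.19% and 4.9% in retinas and 2.78% and 3.17% in embryos. anxa1b, an annexin gene, averaged 388 in yng and 3383 in WT embryos at 52 hpf (-3.22, adjusted p = 1.18e-08), while anxa1c averaged 6835 in yng and 3758 in WT (0.87, adjusted p = 5.68e-04). tfap2a, expressed in the retina itself, averaged 3145 in yng and 7314 in WT retinas at 52 hpf (-1.13, adjusted p = 4.2e-05). A further list held 25 measured genes of cell junctions, cell polarity and filaments, with desmosomal cadherins and tight junction genes among them. Of these, 8 were higher and 12 lower in yng retinas than in yng embryos at 52 hpf, and 11 and 11 in WT. Over all probe sets 51.2% were higher and 22.5% lower in yng, and 49.8% and 20.2% in WT. cdh2, the neural cadherin, averaged 5613 in WT retinas and 3878 in WT embryos at 52 hpf (0.73, adjusted p = 4.4e-05). Of the catenin genes in the same comparison, ctnnb1 (-0.23, adjusted p = 0.0301), ctnnb2 (-0.28, adjusted p = 0.0129) and ctnna1 (-0.62, adjusted p = 2.03e-05) were lower. ctnnd1 was higher (0.38, adjusted p = 3.89e-04) and ctnna2 did not pass (0.16, adjusted p = 0.543).

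The arrays were hybridized on 4 days, and the replicate number marks the day except for WT embryo 52 hpf replicate 3. Within days, cldn11b was higher in yng than in WT retinas on each of 3 days at 52 hpf (1.58, 1.53 and 1.62) and at 36 hpf (1.52, 0.79 and 0.94). krt99 was lower in yng retinas at 52 hpf on each day (-0.91, -1.18 and -1.03), and krt91 was lower in yng embryos at 36 hpf on each day (-1.24, -1.47 and -1.42). gja13.1 was lower in yng embryos at 52 hpf in each replicate pair (-1.15, -0.84 and -1.23). cldn11a and krt93 were higher in yng retinas at 52 hpf in all 3 pairs, with the smallest differences in replicate 3 (0.28 for cldn11a and 0.05 for krt93). All WT arrays were processed on the same fluidics station and all yng arrays on another, so genotype cannot be told apart from the station. The station's module followed tissue and age without exception, so tissue and age differences cannot be told apart from the module. The run record of yng retina 36 hpf replicate 1 was the only 1 of 24 to list a fluidics error. Without that array cldn11b (1.08, adjusted p = 2.82e-04) and cldn11a (0.95, adjusted p = 0.0026) still passed between yng and WT retinas at 36 hpf and krt93 did not, against 6.99% of all probe sets. With age in yng retinas 7 of the 9 genes still passed, against 24.8% of all probe sets.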

How the data were processed

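Total RNA from pools of 10 animals was labelled in a two-cycle reaction and hybridized to 1-colour Affymetrix zebrafish arrays, per the labels' protocols. The deposited values are 1 linear intensity per probe set and array, from 0 to 20110.5; the probe summary and any scaling by the authors are not given here in the labels or files. From the 15617 probe sets 115 controls were removed. Because array medians differed by up to 0.67 (log2), intensities were quantile-normalized after log2(intensity + 16). limma 3.58.1 in R 4.3.3 fitted all 24 arrays as 8 groups (16 residual and 4.25 prior degrees of freedom), with Benjamini-Hochberg adjustment over 15502 probe sets and a threshold of 0.05, and Python 3.11.15 with pandas 2.3.3 made the tables. The fit was tested on simulated data.

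Genes were named through the platform annotation: 10795 probe sets had 1 symbol, 135 several and 4572 none, and all 67 genes were found by gene ID in RefSeq (GRCz12tu), which gave neighbours only. No sequence is printed. The genes, and the lists beside them, were chosen with earlier results of these data known. Values per array are given for the 3 genes of each class with the highest intensity, for up to 4 genes each way per comparison past the threshold without overlap, and for called interactions; genes named beyond these were chosen after their values were seen.

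Same-numbered arrays shared their deviations from group means (median correlation 0.33, lowest 0.074, and 98.8% of pairs over 0.1), and the replicate number follows the hybridization day. Alternatives were the deposited scale, log offsets of 1 and 64, a filter at an intensity of 50, the compared groups alone, the mean of a gene's probe sets, replicate and day blocks, and each array left out in turn.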

Additional observations from a re-analysis of the deposited data

Results flagged for a closer look

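In 7 cases the genotype difference itself differed between tissues or ages, by an interaction term in limma adjusted over all probe sets. The same tests called 4.11% of all probe sets between the ages in retinas. Between the tissues they called 2.37% at 36 hpf and 6.84% at 52 hpf. Only between the tissues at 36 hpf did a larger share of the keratin and junction genes pass than of all probe sets. Between the ages in retinas, krt99 had an interaction of -0.80 ± 0.19 (SE), adjusted p = 0.0161. Between retina and embryo at 36 hpf the interaction was 0.96 ± 0.23 for cldn11a (adjusted p = 0.0271), 1.32 ± 0.34 for krt91 (adjusted p = 0.0431) and -0.98 ± 0.21 for pkp1b (adjusted p = 0.01). At 52 hpf it was 1.12 ± 0.21 for cldn11b (adjusted p = 0.00135), 0.56 ± 0.16 for cldn12 (adjusted p = 0.0322) and -0.75 ± 0.19 for krt99 (adjusted p = 0.0189). Positive values mean that yng minus WT was higher in retinas than in embryos, or at 52 than at 36 hpf. As given above, the calls of krt91, cldn11a, cldn12 and krt99 (by age and by tissue) were not firm. Each was lost under some other settings and when certain single arrays were left out. In retinas krt91 was dim in all groups, and krt99 was dim at 36 hpf. The log offset makes genotype differences of such dim values smaller than the true ones. The krt91 interaction and that of krt99 between the ages therefore cannot show that the genotype effect itself differed.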

How the results depend on the processing

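Of 128 counts of called genes under other settings, 103 were within 1.5 times the reported ones. Shares of all probe sets are given here only for the deposited scale and the replicate block. The other counts therefore do not show whether these genes or the whole array moved. Between yng and WT retinas at 36 hpf 5 genes passed with a log offset of 64. Between yng and WT embryos at 36 hpf the count was 2 on the deposited scale, against 2.09% of all probe sets higher and 2.81% lower. It was also 2 with a log offset of 1 and in the compared groups alone. With an offset of 64 it was 7, and over the mean of each gene's probe sets it was 8. At 52 hpf the count was 1 on the deposited scale, against 2.3% of all probe sets higher and 2.77% lower. It was 7 with an offset of 64 and 2 in the compared groups alone. With an offset of 1, 3 genes passed with age in yng embryos. For genotype by age in retinas 0 passed with an offset of 1 and in the compared groups alone. With the replicate number as a block (the pairing), the count was 6 for yng against WT retinas at 36 hpf (18.5% of all probe sets passed). For embryos at 36 and 52 hpf the counts were 12 and 7 (14.5% and 13.6% of all probe sets). With age in yng retinas and yng embryos they were 14 and 8 (37.8% and 17.9%). Genotype by age in retinas gave 6 (9.07%) and genotype by tissue at 52 hpf gave 6 (12.7%). With the hybridization day as a block these counts were, in order, 6, 9 (embryos at 36 hpf), 14, 8, 6 and 6. Without 1 array at a time, counts were 2 to 5 and 7 to 10 between yng and WT retinas at 36 and 52 hpf, 2 to 6 and 1 to 3 between embryos, 7 to 10 and 12 to 20 with age in yng and WT retinas, 4 to 5 and 4 to 8 with age in yng and WT embryos, 56 to 61 between the tissues, 0 to 2 for genotype by age in retinas, 0 in embryos, and 1 to 3 and 1 to 5 for genotype by tissue at 36 and 52 hpf. Of 4334 single-gene calls under other settings 4070 held, 255 were lost and 9 changed sign, all of them retina against embryo on the deposited scale. These were cldnj (-0.060), gjb8 (-0.022) and krt93 (-0.14) in yng at 36 hpf, cldnk in yng at 52 hpf (-0.011), cldnk in WT at 36 hpf (-0.087), and cldn12 (-0.023), cldnk (-0.034), gja2 (-0.070) and gjb8 (-0.045) in WT at 52 hpf; that setting shifts the median of all probe sets by 0.40 to 0.47, and other causes were not tested. The number of arrays and the dimness of most of these genes in retinas limit the precision.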

Other observations

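A probe set that carries several symbols, a cyt1-type keratin among them, was left out of the counts above. It was listed at 0 in 9 of 12 retina arrays and read 60.2 in yng retina 52 hpf replicate 1, 77.8 in WT retina 52 hpf replicate 1 and 24.5 in WT retina 36 hpf replicate 1, while embryo arrays read 12415 to 14971. All 3 retina arrays above 0 were replicate 1, as was the retina array of WT at 52 hpf in which krt4 was above 0.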
